A study of Mus musculus with 6 samples.

Results

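Heat shock chaperones were followed in crypts of the mouse distal colon, which are glands of the gut epithelium, through 10 genes: Hspa1a, Hspa1b, Hspa8, Hspb1, Hspb8, Dnajb1, Hsph1, Hsp90aa1, Hspd1 and Hspe1. Their members were all Affymetrix probe sets annotated to exactly 1 of these symbols in the platform's probe-to-gene table, which gave 23 of the 22626 probe sets that were not array controls. There were 6 arrays in 3 groups of 2. Tumor crypts came on each array from 12 pooled adenomas, which the design text assigns to 2 mice. Those mice received azoxymethane, a colon carcinogen, at 12.5 mg per kg at 6 to 8 weeks of age, then dextran sulfate sodium (DSS) at 2%, 1.5% and 1.0% in successive cycles, and were sampled 90 days after azoxymethane. DSS crypts came from mice of 6 to 8 weeks after 2 days of 1% DSS in drinking water, and control crypts from untreated mice of 6 to 8 weeks, with 2 mice pooled per array in each group. All mice were male and heterozygous for Lgr5-lacZ, a reporter allele of the intestinal stem cell marker Lgr5. Tumor mice were older than the others and had received azoxymethane and earlier cycles of DSS. Tumor, age, azoxymethane, past DSS and isolation from adenomas therefore cannot be told apart. Each pair of pools is labelled as biological replicates. The p-values measure the spread between these pools, taken over the 3 groups together and drawn towards that of other probe sets of like intensity.

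Heat shock chaperones bind unfolded or stressed proteins and help them to fold. The inducible HSP70 proteins of Hspa1a and Hspa1b and the constitutive one of Hspa8 work in cycles with J-domain partners such as Dnajb1, with nucleotide exchange factors such as Hsph1, and with the HSP90 protein of Hsp90aa1. Hspd1 and Hspe1 encode the chaperonin and its lid inside mitochondria, and Hspb1 and Hspb8 encode small heat shock proteins that hold unfolded clients without using ATP. Many of these genes are induced by heat shock factor 1, which binds heat shock elements made of inverted repeats of the letters nGAAn, and in the colonic epithelium inducible HSP70 and Hspb1 are known for protecting cells from injury.

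Promoter stretches of 4 members are shown. Those of Hspa1a and Hspa1b are given because the genes fell together and are near-identical there, that of Hspb1 because it rose and holds paired units, and that of Hspe1 because it shares its region with Hspd1. They are RefSeq sequences on build GRCm38.p6, each covering the 150 bases before the transcription start, 5′ to 3′ on the gene's strand. Capitals mark the paired heat shock unit, searched as GAANNTTC or TTCNNGAA, each of which reads the same on both strands and can overlap the other.
Hspa1a, chr17:34972157-34972306, minus strand: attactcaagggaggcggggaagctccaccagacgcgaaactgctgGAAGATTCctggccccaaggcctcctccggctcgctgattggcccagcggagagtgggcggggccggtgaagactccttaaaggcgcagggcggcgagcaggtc
Hspa1b, chr17:34959239-34959388, minus strand: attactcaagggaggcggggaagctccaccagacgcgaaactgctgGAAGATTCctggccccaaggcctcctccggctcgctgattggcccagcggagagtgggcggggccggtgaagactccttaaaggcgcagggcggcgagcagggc
Hspb1, chr5:135887769-135887918, plus strand: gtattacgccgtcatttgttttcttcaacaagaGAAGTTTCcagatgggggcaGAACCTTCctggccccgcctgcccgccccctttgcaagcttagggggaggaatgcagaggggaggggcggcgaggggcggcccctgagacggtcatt
Hspe1, chr1:55087998-55088147, plus strand: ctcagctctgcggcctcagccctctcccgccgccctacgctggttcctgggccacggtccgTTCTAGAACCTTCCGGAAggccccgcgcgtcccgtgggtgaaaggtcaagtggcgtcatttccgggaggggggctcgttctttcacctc

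The adjacent genes Hspa1a and Hspa1b share 149 of these 150 bases, and 296 of the 300 in the whole RefSeq window, which runs from 250 bases before the start to 50 after it. Their single paired unit begins 104 bases before the start in both. Hspb1 holds paired units that begin 117 and 97 bases before its start. In Hspe1 the 3 overlapping matches form 1 run, and they are the same bases as those of a window of its neighbour Hspd1, which is read from the opposite strand and shares 285 bases with it. Of the 8 genes with a window, 7 held a paired unit in at least 1 window, that is 8 of their 11 windows, against 15.1% of the 32851 RefSeq windows of that length. A run of 3 alternating GAA and TTC units, each 2 bases apart, was in 4 of the 11, of Hsph1, Hspd1 and Hspe1, against 0.603% of all. The windows of Hsph1 overlap and hold the same run, which begins after the start, at base 37 in one window and 16 in the other. Hspd1 and Hspe1 also share theirs, so both member counts of windows include some bases more than once. Neither window of Dnajb1 held these letters, and the paired unit of Hspb8 began at base 3 after the start. Hspa8 and Hsp90aa1 had no entry.

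Signals were MAS5 intensities, 1 value per probe set and array on a linear scale, and changes are differences of log2(intensity + 17.8), where 17.8 is the 25th percentile of all values. They were tested with limma over all 12146 probe sets whose signal exceeded the array median on 2 or more arrays, and a change was called at a Benjamini-Hochberg adjusted p under 0.05. Of the 23 chaperone probe sets 21 were tested, and 2 of the 3 for Hspb8 lay below the median on every array. Median intensity ran from 94.2 on DSS replicate 1 to 131 on tumor replicate 2, and 2 arrays per group limit the precision. The 2 groups compared did not overlap for 7279 of all 12146 probe sets tested in tumor against control crypts. Those counts were 7841 in tumor against DSS and 3238 in DSS against control crypts. Of the 21 chaperone probe sets 9, 15 and 12 did not overlap in these comparisons. The log2 ratio of the 3′ to the 5′ actin control, a sign of RNA quality, was 0.95 and 1.04 on the tumor arrays, against 1.20 to 1.63 on the other 4. Pan-epithelial markers, 13 of 13 above the filter, summed to 90830 to 96582 in tumor, 98330 to 114316 in DSS and 92690 to 99308 in control crypts, so the labelled tissue carried its markers on every array. Within each group replicate 2 carried more signal of other cell types than replicate 1. The summed smooth muscle markers (10 genes of 11 listed, 7 above the filter) were 879 and 1918 on tumor arrays 1 and 2, 2031 and 4456 on the DSS arrays, and 1524 and 4653 on the control arrays. In bulk crypts, fewer cells of a type and less RNA per cell cannot be told apart.

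Inducible HSP70 was lower in tumor crypts than in the other crypts. In tumor against control crypts, 7 of the 21 chaperone probe sets were called, 4 lower and 3 higher, beside 19.6% of all probe sets tested (8.33% lower, 11.2% higher). All 4 that fell belonged to Hspa1a and Hspa1b, and the 3 that rose to Hspb1 and Hspb8, of which Hspb8 has a limit given below. The single Hspa1a probe set, 1452388_at, had intensities of 998 and 1202 in tumor crypts, 3198 and 2886 in DSS crypts, and 2771 and 2008 in control crypts. Both tumor arrays lay below every other array, while the DSS arrays lay above both control arrays by less than the gap to the tumors. Its log2 change was -1.09 ± 0.20 in tumor against control crypts (SE, limma, adjusted p = 0.00825) and -1.46 ± 0.20 in tumor against DSS crypts (adjusted p = 0.00210).

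Hspa1b, the twin gene of nearly the same sequence, had 3 probe sets. Of these 1427126_at read 2381 and 2186 in tumor crypts, 4883 and 4986 in DSS crypts, and 3596 and 3602 in control crypts. The groups did not overlap and the 2 arrays within each lay close together. Probe set 1427127_x_at read 3154 and 2748 in tumor, 7345 and 6052 in DSS, and 4764 and 4801 in control crypts. Probe set 1452318_a_at read 5992 and 6155 in tumor, 10652 and 11054 in DSS, and 10838 and 10251 in control crypts. All 3 were lowest in both tumor arrays, but DSS and control overlapped on the last. In tumor against control crypts the log2 changes were -0.65 ± 0.14, -0.70 ± 0.16 and -0.79 ± 0.13 (SE, limma, adjusted p = 0.017, 0.0211 and 0.00527). The first lost its call without control replicate 1 (adjusted p = 0.0574), control replicate 2 (0.0774) or tumor replicate 2 (0.0999), and the second without the same arrays (0.068, 0.0929 and 0.12), with log2 changes of -0.59 to -0.70. Transcripts of Hspa1a and Hspa1b may reach each other's probes, and the suffix x marks probe sets whose probes match other transcripts too, so the 4 probe sets are not separate evidence for 2 genes.

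**Figure D1:**
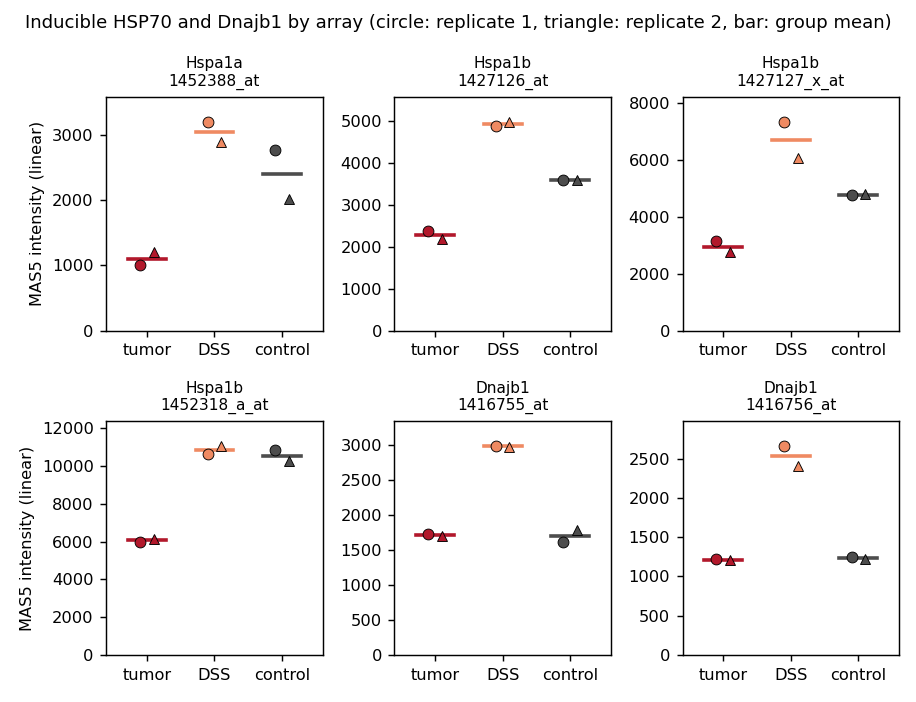
MAS5 intensity on a linear axis from 0 for the Hspa1a, Hspa1b and Dnajb1 probe sets in tumor, DSS and control crypts, with circles for replicate 1, triangles for replicate 2 and bars for the mean of 2 arrays. Tumor arrays were lowest for Hspa1a, at 998 and 1202, and DSS arrays were highest for both Dnajb1 probe sets.

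Inducible HSP70 was also lower in tumor than in DSS crypts. In that comparison 9 of 21 chaperone probe sets were called, 6 lower and 3 higher, beside 23.0% of all tested (9.74% lower, 13.3% higher). The 6 belonged to Hspa1a, Hspa1b and Dnajb1, and the 3 to Hspb1 and Hspb8, of which Hspb8 has a limit given below. The Hspa1b changes were -1.11 ± 0.14, -1.17 ± 0.16 and -0.84 ± 0.13 (SE, limma, adjusted p = 0.00158, 0.00203 and 0.00364). These 3 and the Hspa1a probe set kept their calls in every alternative run, including each array left out in turn.

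Dnajb1, the J-domain partner that hands stress-damaged clients to HSP70, was higher in DSS crypts than in tumor crypts and lay at one level in tumor and control crypts. Probe set 1416755_at read 1733 and 1698 in tumor crypts, 2991 and 2981 in DSS crypts, and 1617 and 1790 in control crypts. Probe set 1416756_at read 1225 and 1202 in tumor, 2659 and 2405 in DSS, and 1248 and 1216 in control crypts. On both, the 2 DSS arrays stood apart from the 4 others, which overlapped. In tumor against DSS crypts the log2 changes were -0.79 ± 0.15 and -1.05 ± 0.15 (SE, limma, adjusted p = 0.00837 and 0.00276). The first lost its call without DSS replicate 1 (-0.79, adjusted p = 0.0705) or DSS replicate 2 (-0.80, adjusted p = 0.059). Between tumor and control crypts the changes were 0.01 and -0.02, with 95% intervals of -0.33 to 0.36 and -0.37 to 0.33.

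No chaperone probe set was called in DSS against control crypts, where limma called 0 of 12146 probe sets (0% of all tested, smallest adjusted p = 0.226). At an unadjusted p under 0.05 there were 284 probe sets, or 2.34% of all tested, and 8 of the 21 chaperone probe sets were among them. They were both of Dnajb1, 2 of Hspa1b (1427126_at and 1427127_x_at) with positive changes, and both of Hsph1, Hspa8 1420622_a_at and Hsp90aa1 1438902_a_at with negative ones. Dnajb1 had the largest positive changes of the 21, at 0.81 ± 0.15 and 1.03 ± 0.15 (SE, limma, adjusted p = 0.673 and 0.464), with 95% intervals of 0.46 to 1.15 and 0.67 to 1.38. Arrays of the same number gave 0.88 and 0.73 for 1416755_at and 1.08 and 0.97 for 1416756_at. The 3 Hspa1b changes were 0.45, 0.48 and 0.04 and that of Hspa1a was 0.36, each with an adjusted p of 1.0. Immediate early genes, transcription factors and regulators switched on within minutes of many stresses, had 16 of 18 tested genes with positive changes and a median of 0.83, beside 0.00 over all probe sets tested, and 0 called. Their summed intensity was 62682 and 67403 in DSS crypts, against 41970 and 38569 in control crypts, and 38617 and 55909 in tumor crypts. Their part in the chaperone values was not tested.

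Hspb1 rose in tumor crypts, and the other small heat shock protein among the members, Hspb8, was also higher there. Of 6 further genes on the small heat shock protein list with a probe set, only Hspb11 was tested, and it fell in tumor crypts. Hspb1, whose product also caps actin filaments, had intensities of 889 and 1205 in tumor crypts, 171 and 272 in DSS crypts, and 118 and 256 in control crypts on probe set 1422943_a_at. Its other probe set, 1425964_x_at, read 583 and 813 in tumor, 90.2 and 237 in DSS, and 80.3 and 191 in control crypts. Tumor arrays lay above all others on both, and replicate 2 was the higher array in every group. The log2 changes in tumor against control crypts were 2.45 ± 0.36 and 2.31 ± 0.47 (SE, limma, adjusted p = 0.00322 and 0.0124), and in tumor against DSS crypts 2.17 ± 0.36 and 2.09 ± 0.47 (adjusted p = 0.00468 and 0.0158). Probe set 1425964_x_at lost its call against control crypts without control replicate 1 (1.76, adjusted p = 0.0534) or tumor replicate 2 (2.07, adjusted p = 0.0726), and against DSS crypts without DSS replicate 1 (1.47, adjusted p = 0.0762) or tumor replicate 2 (1.86, adjusted p = 0.0797).

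Hspb8, which acts with the co-chaperone Bag3 in clearing misfolded proteins, read 205 and 256 in tumor crypts, 28.3 and 36.2 in DSS crypts, and 15.5 and 40.9 in control crypts on probe set 1417013_at. It lay above the array median only on the tumor arrays, so it entered the test through the group where it was high, and its change of 2.48 ± 0.36 (SE, limma, adjusted p = 0.00322) adds no separate support. With a pseudocount of 1 that change was 3.13, and with a pseudocount of 107 (the median value) 1.32. The untested 1456434_x_at read 90.5 and 73.0 in tumor, 2.38 and 36.2 in DSS, and 1.58 and 19.0 in control crypts, and 1417014_at read 63.7 and 59.7, 25.5 and 50.9, and 32.4 and 41.1 in the same groups. All 3 were highest on the tumor arrays, though 2 of the 3 lay below the array median on every array.

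Marker sums of other cell types are given beside Hspb1 and Hspb8. Smooth muscle had lower summed markers in tumor crypts (879 to 1918) than in DSS (2031 to 4456) crypts and overlapped control crypts (1524 to 4653). Of its 7 tested genes 0 were called in either tumor comparison, with negative changes in all 7 in both. Myeloid and neutrophil markers (14 genes, 7 tested) summed to 6343 to 21811 in tumor, 1928 to 2648 in DSS and 2149 to 2611 in control crypts, with 4 of 7 called higher in tumor against control. Fibroblast markers (14 genes, 12 tested) summed to 4854 to 14867 in tumor, 3996 to 7422 in DSS and 2896 to 6083 in control crypts. Of the 12 fibroblast genes 2 were called higher in tumor against control, none lower, and 7 had negative changes, with a list median of -0.48, and against DSS 8 had negative changes, with a median of -0.83. The gene Vim, singled out after its values were seen, read 3477 and 6413 in tumor, 433 and 965 in DSS and 287 and 799.9 in control crypts, and so made up much of the tumor sums. Endothelial markers (7 genes, 0 tested) summed to 299 to 926 in tumor, 196 to 390 in DSS and 191 to 363 in control crypts. Lymphoid markers (8 genes of 9 listed, 1 tested) summed to 196 to 1864 in tumor, 152 to 3228 in DSS and 304 to 2539 in control crypts. No marker was listed at 0, and the part of any of these cell types, smooth muscle included, in the Hspb1 and Hspb8 values was not tested. The within-group order of Hspb1, replicate 2 above replicate 1, was also that of the summed smooth muscle, fibroblast, myeloid, endothelial and lymphoid markers in all 3 groups.

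**Figure D2:**
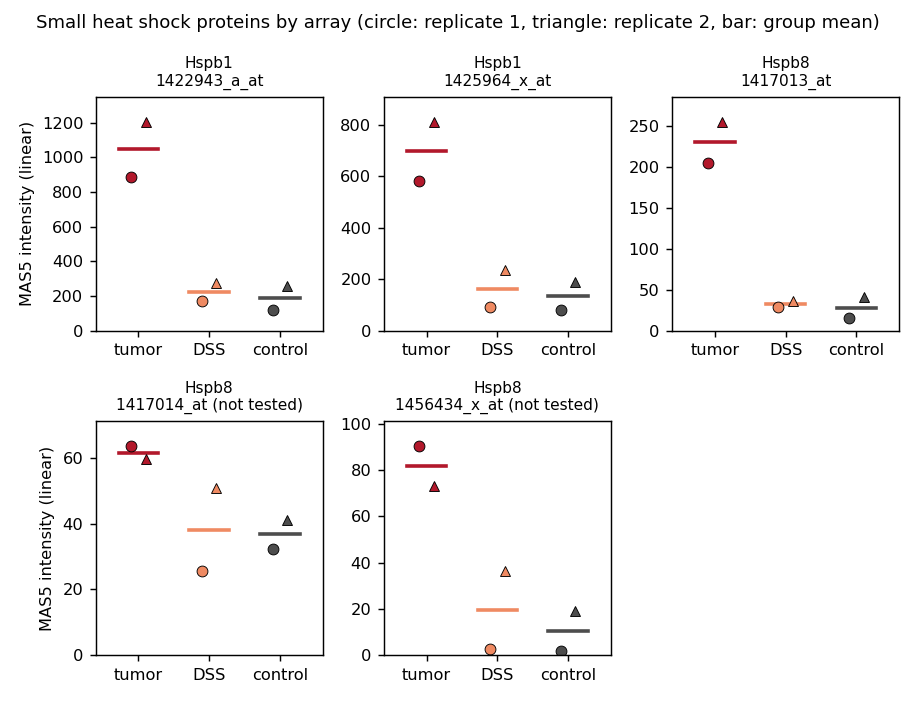
MAS5 intensity on a linear axis from 0 for the Hspb1 and Hspb8 probe sets in tumor, DSS and control crypts, with circles for replicate 1, triangles for replicate 2 and bars for the mean of 2 arrays. Both tumor arrays lay above the other 4 on all 5 probe sets, of which 2 for Hspb8 were not tested. Over all 12146 probe sets tested, tumor and control arrays did not overlap for 7279, and tumor and DSS arrays for 7841.

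The probe set with the widest spread among the 21 was Hspb8 1417013_at, with an SD of 1.27 over the 6 arrays on the log2 scale. It entered the test through the tumor arrays alone, as given above, so its spread and pattern are no separate support. The genes nearest to its pattern, by the root mean square difference of log2 values centred on each gene's mean over the 6 arrays, were Timp2 at 0.13, Spns2 at 0.14, Pfn2 at 0.15, and Cadm4 and Vill at 0.16, out of 7446 genes compared. Timp2, an inhibitor of matrix metalloproteinases, read 566 and 770.1 in tumor crypts, 113 and 151 in DSS crypts, and 86.9 and 184 in control crypts. Spns2, Pfn2, Cadm4 and Vill, like Hspb8, exceeded the array median on tumor arrays alone.

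Hsph1, the HSP110 exchange factor, varied more between the 2 control arrays than between the arrays of either other group. Probe set 1425993_a_at read 726 and 1042 in tumor crypts, 406 and 439 in DSS crypts, and 1583 and 507 in control crypts, so the control arrays differed 3.12-fold. Probe set 1423566_a_at read 289 and 358 in tumor, 175 and 131 in DSS, and 483 and 226 in control crypts. On both, every DSS array lay below every other array and control replicate 1 was the highest. The changes in DSS against control crypts were -1.06 ± 0.45 and -1.04 ± 0.34 (SE, limma, each with an adjusted p of 1.0), and without control replicate 1 they were -0.26 and -0.52. In tumor against DSS crypts they were 1.01 ± 0.45 and 1.00 ± 0.34 (adjusted p = 0.146 and 0.0673). When control arrays were left out altogether, the same values passed at adjusted p = 0.0168 and 0.0239, and they passed without control replicate 1 (0.0168 and 0.0236) and without control replicate 2 (0.0149 and 0.0204). Those arrays enter this difference only through the pooled spread. Tumor against control changes, at -0.05 and -0.04, became 0.76 and 0.48 without control replicate 1 and -0.85 and -0.56 without control replicate 2. Over the 21 chaperone probe sets, 5 differed by more than 1 on the log2 scale between the 2 control arrays (both of Hsph1, both of Hspb1 and Hspa8 1431182_at), beside 2.82% of all tested. Hsph1 was the higher on replicate 1, and the other 3 on replicate 2.

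The constitutive HSP70 gene Hspa8 and the HSP90 gene Hsp90aa1 had no called probe set in any comparison. Among the 4 for Hspa8, 1455789_x_at read 17051 and 15191 in tumor crypts, 19972 and 16529 in DSS crypts, and 16319 and 16080 in control crypts, and 1420623_x_at read 10745 and 9117, 9653 and 9003, and 10163 and 9328 in those groups. Groups overlapped on both, except for DSS above control on the first. Their tumor against control changes were -0.01 and 0.02, with 95% intervals of -0.34 to 0.32 and -0.31 to 0.36. Probe set 1420622_a_at read 5498 and 5932 in tumor, 3939 and 5736 in DSS, and 6051 and 7220 in control crypts, and 1431182_at read 492 and 821 in tumor, 904 and 1779 in DSS, and 592 and 1217 in control crypts. These 2 pointed opposite ways in DSS against control crypts, at -0.47 ± 0.20 and 0.57 ± 0.42 (SE, limma, each with an adjusted p of 1.0), so the probe sets of Hspa8 did not share a direction. Between tumor and DSS crypts 1431182_at had a change of -0.98 (adjusted p = 0.137), which passed with each array centred on its median (-1.21, adjusted p = 0.0306). Likewise 1420623_x_at, at 0.09 (adjusted p = 0.71), passed with quantile normalization (0.33, adjusted p = 0.0464), but was -0.15 with median centring (adjusted p = 0.692).

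Hsp90aa1, whose product folds kinases and steroid receptors, read 5627 and 6545 in tumor crypts, 4803 and 5613 in DSS crypts, and 6791 and 6739 in control crypts on 1438902_a_at. Probe set 1437497_a_at read 2567 and 1923 in tumor, 1619 and 1450.2 in DSS, and 2729 and 1413 in control crypts, and 1426645_at read 1648 and 1189.7, 1387 and 1204, and 1613 and 1465 in those groups. All 3 had negative changes in DSS against control crypts, of -0.38, -0.36 and -0.25, and none passed. Without control replicate 1 the change of 1437497_a_at was 0.12.

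The mitochondrial pair Hspd1 and Hspe1, which share the promoter region printed above, also had no call. Hspd1 (1426351_at) read 4170.2 and 4290.1 in tumor crypts, 3232 and 3007 in DSS crypts, and 4332 and 3038 in control crypts. Hspe1 read 4341 and 3804 in tumor, 3749 and 3841 in DSS, and 4305 and 4720.3 in control crypts on 1450668_s_at, and 1629.6 and 1182, 1534 and 1276, and 1422 and 1813 in those groups on 1422579_at. Tumor and DSS arrays did not overlap for Hspd1 but did for Hspe1. Tumor minus DSS was 0.44 ± 0.19 (SE, limma, adjusted p = 0.137, 95% interval 0.00 to 0.88) for Hspd1, and 0.10 ± 0.15 and -0.01 ± 0.22 for the Hspe1 probe sets (adjusted p = 0.676 and 0.977). Whether the 2 genes differed from each other was not tested.

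**Figure D3:**
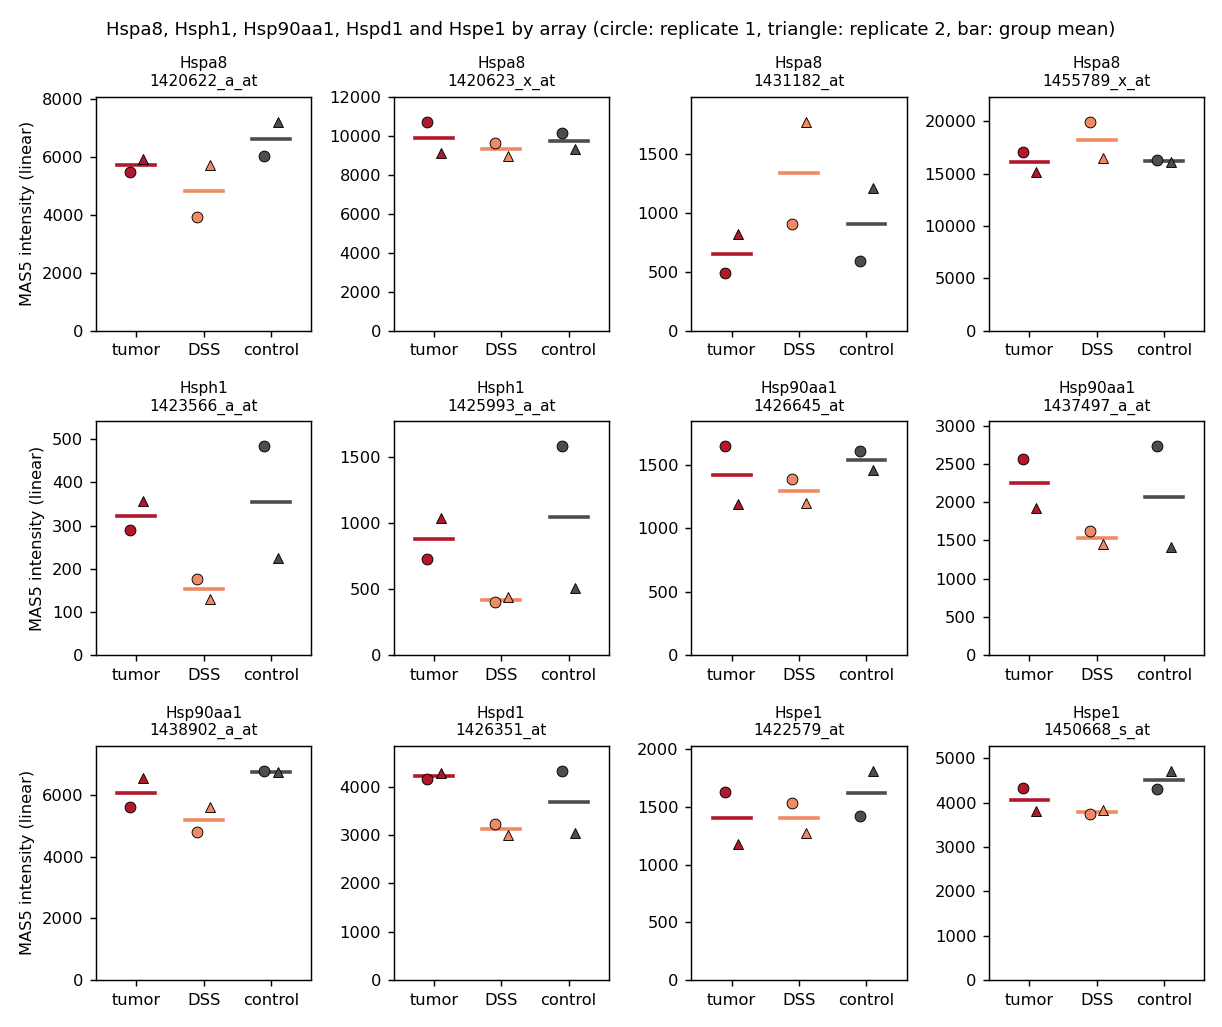
MAS5 intensity on linear axes from 0 for the probe sets of Hspa8, Hsph1, Hsp90aa1, Hspd1 and Hspe1 in tumor, DSS and control crypts, with circles for replicate 1, triangles for replicate 2 and bars for the mean of 2 arrays. Control replicate 1 stands out for Hsph1, at 1583 against 507 for replicate 2 on 1425993_a_at.

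**Figure D4:**
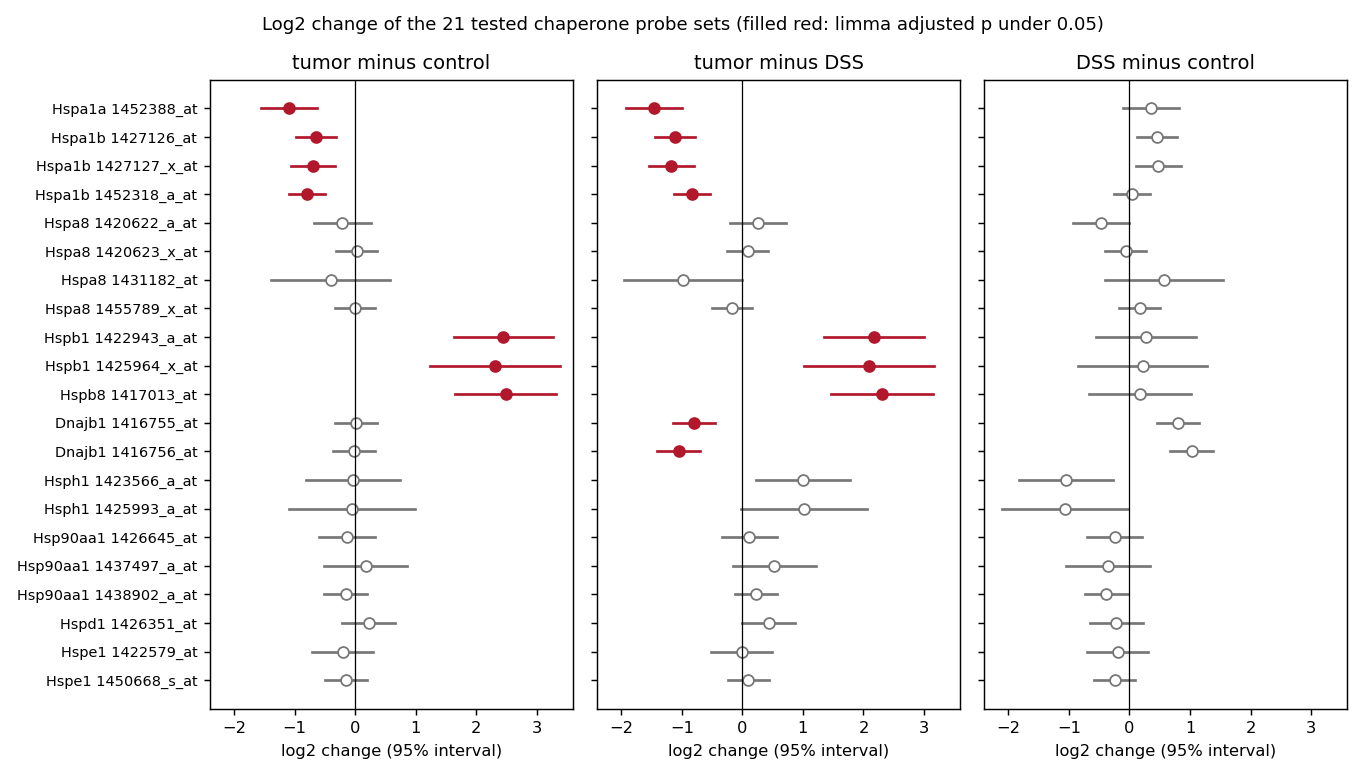
Log2 change on the horizontal axis with its 95% interval from limma for the 21 tested chaperone probe sets, in tumor minus control, tumor minus DSS and DSS minus control crypts. Filled red points passed an adjusted p under 0.05, and there were 7, 9 and 0 of them.

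Over the 21 chaperone probe sets the median log2 change was -0.05 in tumor against control, 0.10 in tumor against DSS and 0.04 in DSS against control crypts, beside 0.03, 0.04 and 0.00 over all probe sets tested. The calls in tumor against control crypts ran both ways, lower for Hspa1a and Hspa1b and higher for Hspb1 and, with the limit given above, Hspb8. Centring each array on its median moved the median of all probe sets to -0.21 in tumor against control crypts and turned the split of all calls from 1366 higher and 1012 lower to 866 higher and 1658 lower. The 7 chaperone calls of that comparison held under it and under quantile normalization. For tumor against DSS crypts centring gave -0.20 and 977 higher and 1770.0 lower calls, in place of 1612 and 1183.

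The wider chaperone network was described through 8 lists of 80 genes, of which 58 were tested with 1 probe set each. In tumor against control crypts 5 rose and 1 fell (10.3% called, beside 19.6% of all probe sets tested), with a median log2 change of 0.21 beside 0.03. In tumor against DSS crypts 12 rose and 2 fell (24.1%, beside 23.0%), with a median of 0.23 beside 0.04, and in DSS against control crypts none was called, with a median of -0.06 beside 0.00. The shares and medians set beside the lists are over probe sets, not genes. With 1 probe set per gene, 1680 of 7456 genes were called in tumor against control and 1950 in tumor against DSS crypts. Among the 12 rises were Hspa2 (1.26) and Dnaja4 (1.34), which exceeded the array median on tumor arrays alone and so had to be higher there. Hspa2, an HSP70 known from the testis, read 160.0 and 185 in tumor crypts, 52.4 and 71.9 in DSS crypts, and 49.9 and 40.4 in control crypts, and rose in tumor against control crypts by 1.60 ± 0.28 (SE, limma, adjusted p = 0.00741). Like Hspb8, Hspa2 was above the array median only on tumor arrays, so it had to differ. Hspb11, listed with the small proteins and known from cilia, fell, with 715 and 599 in tumor, 1490.2 and 1645 in DSS, and 1146 and 1729 in control crypts, and changes of -1.08 ± 0.22 against control and -1.24 ± 0.22 against DSS crypts (adjusted p = 0.0134 and 0.00696). The call against control crypts was lost without control replicate 2 (-0.79, adjusted p = 0.0637) or tumor replicate 2 (-0.96, adjusted p = 0.0780). The other 4 calls against control crypts were rises of Hspa4, an HSP110 relative, at 0.72, Dnaja4, a J-domain protein, at 1.47, which likewise exceeded the median on tumor arrays alone, Grpel2, a mitochondrial exchange factor, at 0.90, and Cct7, a subunit of the cytosolic chaperonin TRiC, at 0.65.

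In tumor against DSS crypts the calls included Stip1, which links HSP70 to HSP90, at 1.09 (513.9 and 635.6 in tumor, 266 and 252 in DSS, and 490.1 and 271 in control crypts), and Dnaja1, a J-domain partner of HSP70, at 0.96 (4446 and 3813 in tumor, 1813 and 2462 in DSS, and 4207 and 2876 in control crypts). For both genes the DSS arrays were the lowest, the opposite order to Dnajb1. Of the 12 tested genes of the TRiC and prefoldin list 4 rose there, among them Cct3, Cct7 and Cct8, with a list median of 0.38. With each array centred on its median 9 of the 12 rises against DSS crypts lost their call, among them Dnaja1 (0.72, adjusted p = 0.0769), Cct3 (0.75, adjusted p = 0.0610), Cct7 (0.38, adjusted p = 0.262) and Cct8 (0.37, adjusted p = 0.261). Against control crypts 3 of the 5 rises lost theirs, those of Hspa4 (0.47, adjusted p = 0.179), Grpel2 (0.65, adjusted p = 0.0849) and Cct7 (0.40, adjusted p = 0.252). With the mean of its probe sets Hspa4 was at 0.19 (adjusted p = 0.571) against control crypts. Leaving out an array leaves 1 array in its group, so a call can be lost without a smaller change. Without DSS replicate 1 the change against DSS crypts was 1.07 for Cct3 (0.99 with all arrays) and 0.74 for Dnaja1 (0.96 with all arrays), and both lost their call. Of the 6 calls against control crypts, 1 held without control replicate 2, 1 of the 4 that could be fitted held without tumor replicate 1, and 1 of 4 without tumor replicate 2. Of the 14 against DSS crypts, 1 held without DSS replicate 1, 4 without DSS replicate 2, 5 of 12 without tumor replicate 1, and 2 of 12 without tumor replicate 2. No probe set was annotated to Hsf1 alone in the table used here, so heat shock factor 1 was not analysed here, and the 2 measured factors, Hsf2 and Hsf4, lay below the filter.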

How the data were processed

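Messenger RNA of 6 pools was measured on Affymetrix arrays from biotin-labelled cRNA. Per the labels the authors' tool was MAS5 (its version is not given in the sources used), and the deposited values are signal intensities on a linear scale. Each array's mean, with 2% trimmed at either end, lay at 500.2, the form of MAS5 scaling. Of 22690 probe sets 64 controls were set aside, and of the 22626 left 20380 had 1 symbol, 691 several and 1555 none. Values were taken as log2(intensity + 17.8), the 25th percentile. One limma model (3.58.1, R 4.3.3) held all 3 groups, used an intensity trend without further normalization, and covered the 12146 probe sets that exceeded the array median on 2 or more arrays. Probe sets were not collapsed to genes. Tests were 2-sided, and the pipeline was tested on simulated data. Named pathway genes were taken from those called in each list, at most 3 of smallest p per comparison, and likeness to the most variable member named 5 genes. Named members were all 10 genes. Members and lists were chosen with earlier results of these data known. Alternatives covered normalization, pseudocount, filter, collapsing, trend, groups fitted, the replicate block and each array left out. Those for the pathway genes were added after seeing the data. Figures were drawn with matplotlib 3.10.9.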

Additional observations from a re-analysis of the deposited data

How the results depend on the processing

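Of the member changes, no called one changed sign in any alternative run. Values below are log2 changes of uncalled results that did. With median centring they were, in tumor minus control, -0.24 for Dnajb1 1416755_at, -0.073 for Hsp90aa1 1437497_a_at, -0.23 for Hspa8 1420623_x_at and -0.028 for Hspd1. In tumor minus DSS they were -0.12 for Hsp90aa1 1426645_at, -0.010 for 1438902_a_at, -0.15 for Hspa8 1420623_x_at and -0.14 for Hspe1 1450668_s_at. With quantile normalization they were -0.014 for Hspa1b 1452318_a_at in DSS minus control, and 0.15 and 0.12 for Hspa8 1455789_x_at in tumor minus control and tumor minus DSS. With the mean over probe sets Dnajb1 was at -0.00493 in tumor minus control.

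With each array left out in turn, DSS minus control ran from -0.83 to 0.12 for Hsp90aa1 1437497_a_at, -0.23 to 0.78 for Hspb1 1422943_a_at, -0.41 to 0.84 for Hspb1 1425964_x_at, -0.23 to 0.59 for Hspb8 and -0.47 to 0.037 for Hspd1. Tumor minus control ran from -0.061 to 0.084 for Dnajb1 1416755_at, -0.36 to 0.10 for Hsp90aa1 1426645_at, -0.29 to 0.65 for 1437497_a_at, -0.095 to 0.14 for Hspa8 1420623_x_at, -0.92 to 0.10 for 1431182_at, -0.093 to 0.074 for 1455789_x_at, -0.034 to 0.48 for Hspd1, -0.44 to 0.021 for Hspe1 1422579_at, -0.56 to 0.48 for Hsph1 1423566_a_at and -0.85 to 0.76 for 1425993_a_at. Tumor minus DSS ran from -0.12 to 0.35 for Hsp90aa1 1426645_at, -0.0064 to 0.53 for Hspa8 1420622_a_at, -0.032 to 0.20 for 1420623_x_at and -0.24 to 0.22 for Hspe1 1422579_at. Hspb8 was not tested without either tumor array, since it then missed the filter. The cause of these sign changes was not tested.

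Counts of calls over all probe sets ran from 0 to 2 in DSS minus control, 827 to 1901 in tumor minus control and 1130 to 2828 in tumor minus DSS with an array left out. For chaperone probe sets they ran from 3 to 7 in tumor minus control, the lowest without tumor replicate 2. With the 75th percentile filter, which tests 6325 probe sets, 1546 and 1811 were called in the 2 tumor comparisons. With 1 probe set per gene, 4 of the 10 genes were called in tumor minus control and 5 in tumor minus DSS, beside 1680 and 1950 of all 7456 genes, and with the mean of a gene's probe sets again 4 and 5, beside 1693 and 2007. The call of Hspa1b 1427126_at in tumor minus control was lost with the replicate block in a fit of the 2 groups (-0.65, adjusted p = 0.0651). The replicate number as a block, in fits of the 2 compared groups, called 195 probe sets and 5 chaperone ones in DSS minus control, and 4849 and 14 in tumor minus DSS. The 5 were both of Dnajb1 and Hspa8 1431182_at, higher, and both of Hsph1, lower. That fit has 1 residual degree of freedom per probe set, and the block over all 3 groups called 0 in DSS minus control. In tumor minus control the 3-group block called 2954 probe sets and 7 chaperone ones, and in tumor minus DSS 3417 and 11, with Hspa8 1431182_at (adjusted p = 0.00479) and Hsph1 1423566_a_at (adjusted p = 0.0440) added. The 2-group block gave 1431182_at an adjusted p of 0.000462 there. Deviations of same-numbered arrays correlated at 0.48 for DSS and control, 0.13 for tumor and control and 0.47 for tumor and DSS. With 2 arrays a group the arrays share only a number, and the labels name no shared litter or batch.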
